A study of Rattus norvegicus with 32 samples.

Results

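The genes described here are 2 neurotrophins, Bdnf and Ntf3, and 4 receptors of neurotrophins and their precursors, Ntrk2, Ntrk3, Ngfr and Sort1. They were taken by gene symbol from the deposited count tables, and these 6 were found among 32883 entries in each table. Hippocampal RNA was sequenced from 32 Sprague-Dawley rats at 65 days of age, with 4 rats in each of 4 diet groups of each sex. The control group was always iron-sufficient (IS), and the FID group was formerly iron-deficient. Choline was added to the maternal diet before birth in the ISch group, otherwise fed as IS, and in the FIDch group, otherwise fed as FID. For the males, dams ate 4 mg/kg iron in the FID groups and 200 mg/kg in the IS groups from gestational day 2 to postnatal day 7, and all were iron-sufficient afterwards. Choline was 5.0 g/kg with supplementation and 1.1 g/kg without, from gestational day 11 to 18. The study's methods give these amounts and the use of 1 rat per litter for males only, and for females only the labels' diet names were used. All male libraries belong to sequencing batch I and all female ones to batch II. Effects of sex cannot be told apart from those of batch, and levels were compared within a batch.

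Neurotrophins are secreted as precursors or as mature dimers. Mature BDNF, encoded by Bdnf, acts mainly through TrkB (Ntrk2), and neurotrophin-3, encoded by Ntf3, acts mainly through TrkC (Ntrk3), while the p75 receptor (Ngfr) pairs with sortilin (Sort1) to bind the precursors. Sortilin also sorts the BDNF precursor inside neurons towards regulated secretion. In the adult hippocampus, BDNF is known for its role in synaptic plasticity and memory, and both ligands are transcribed in granule cells of the dentate gyrus.

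Female rats with prenatal choline had on average more Bdnf and Ntf3 mRNA and less Sort1 mRNA than female rats without it, and in males no gene of the group met the study's criterion. That criterion was an absolute log2 fold change over 0.2 with an unadjusted p under 0.05, applied here to edgeR's quasi-likelihood test. The 8 female rats with choline and the 8 without did not overlap for Sort1, but they overlapped for Bdnf and Ntf3. Levels are given in CPM, counts scaled to a common library total, after TMM normalization within a batch. CPM values do not account for gene length, so that levels of different genes were not compared. In bulk tissue, fewer cells of a type and less RNA per cell cannot be told apart.

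**Figure D1:**
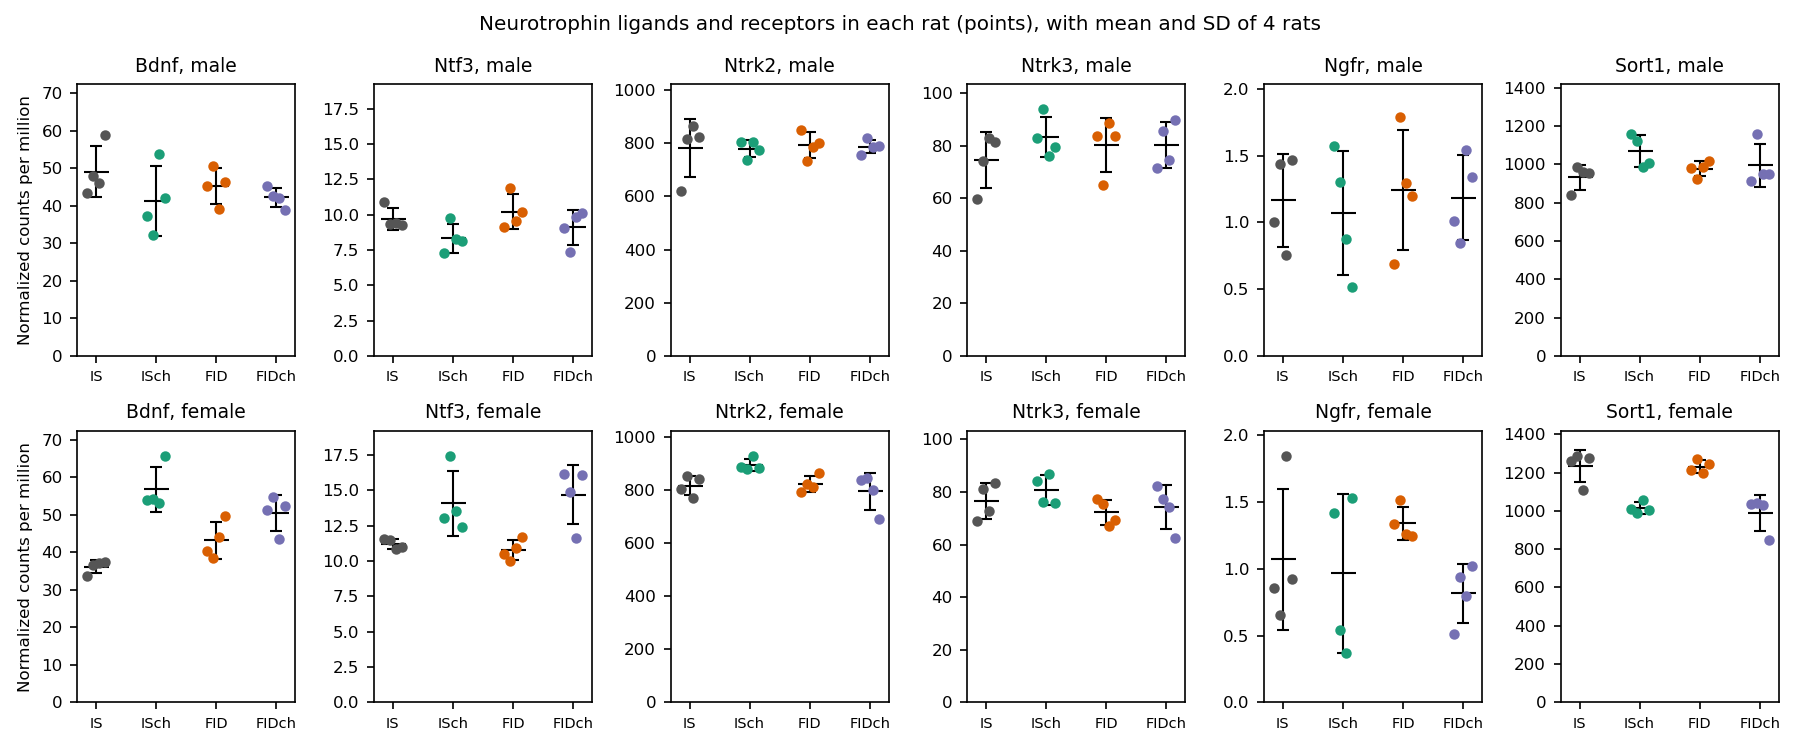
Level of each gene in each rat, in normalized CPM on the vertical axis, by diet group and sex; points are rats, bars the mean and SD of 4 rats, and each gene has the same axis in both sexes. In females, the 8 choline rats lie at 850 to 1059 CPM for Sort1 and the 8 others at 1107 to 1288, while the Bdnf means of the choline and other rats are 53.6 and 39.7.

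The ligand BDNF showed the largest fold change of the 6 genes in the female ISch and FIDch groups against IS. Bdnf (ENSRNOG00000047466) was at 33.6, 36.5, 37.2 and 37.4 CPM in the female IS rats and at 53.9, 54.1, 53.2 and 65.7 CPM in the ISch rats. The lowest ISch rat was above the highest IS rat, and the mean was 56.8% higher in ISch (p = 0.029, 2-sided exact permutation test, the smallest that 4 against 4 rats allow). Adjusted over the 60 such tests run, that permutation p was 0.143. On the log2 scale the fitted change was 0.65 (standard error 0.073), and the Benjamini-Hochberg adjusted p of the quasi-likelihood test in edgeR was 0.0015. It stayed under 0.05 whichever of the 8 libraries was left out. In FIDch the 4 rats were at 51.2, 54.7, 43.6 and 52.3 CPM, all above the IS rats, and the fitted log2 change against IS was 0.48 (standard error 0.073, adjusted p = 0.0177). That adjusted p stayed under 0.05 in 3 of the 8 fits with a library removed.

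The formerly iron-deficient females lay between these groups. Bdnf was at 40.4, 38.6, 44.2 and 49.6 CPM in FID, so that each FID rat was above each IS rat. For FID against IS the log2 fold change was 0.26 ± 0.074 (standard error) and the adjusted p 0.206, which met the criterion but not the adjusted threshold. Without FID replicate 4 it was 0.18, under the fold limit. Between FIDch and FID the groups overlapped, and the fitted log2 change of 0.22 (standard error 0.09, adjusted p = 0.228) no longer met the criterion without FID replicate 1, FID replicate 2, FIDch replicate 1 or FIDch replicate 2, with values of 0.19, 0.17, 0.21 and 0.18. The order of the female means was IS, FID, FIDch and ISch from low to high. Only the neighbours IS and FID did not overlap, and the neighbours FID and FIDch (p = 0.086) and FIDch and ISch (p = 0.11) did not differ beyond their spread in the exact permutation test.

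Whether the choline difference depended on early iron was tested in 1 model of the 16 female libraries. For Bdnf the choline difference was smaller in the formerly iron-deficient rats, by -0.42 on the log2 scale (standard error 0.12, unadjusted p = 0.00307 and adjusted p = 0.346 from edgeR's test). It was the only gene of the 6 at the criterion for this interaction, where 7.33% of all genes tested were. Ntrk2 had the same direction, at -0.18 (standard error 0.077, unadjusted p = 0.0304 and adjusted p = 0.496 in edgeR), under the fold limit. It met the criterion without female IS replicate 2, FIDch replicate 1 or FIDch replicate 2. Bdnf in males was at 43.5, 47.9, 45.9 and 58.9 CPM in IS, at 37.3, 32.1, 53.8 and 42.0 in ISch, at 45.2, 50.5, 39.1 and 46.2 in FID and at 45.2, 42.7, 42.0 and 38.9 in FIDch. The male groups overlapped in each of the 5 comparisons. Against IS the log2 fold change was -0.25 in ISch (standard error 0.14, adjusted p = 0.564) and -0.21 in FIDch (standard error 0.1, adjusted p = 0.636). The first met the criterion without ISch replicate 3 (-0.39). The second met it without IS replicate 1 (-0.27), IS replicate 3 (-0.24) or FIDch replicate 1 (-0.26). Without the 3 male libraries whose names in the labels end in A, Bdnf was at -0.04 in ISch and -0.22 in FIDch against IS. The ISch libraries among the 3, at 37.3 and 32.1 CPM, were the lowest of ISch. As with all libraries, neither value met the criterion.

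The promoter windows of Bdnf, Ntf3 and Sort1 are shown because these genes met the criterion in both female choline groups against IS, the ligands higher and Sort1 lower. Windows are the 250 bases before a transcript start in RefSeq, on assembly GRCr8, and not on Rnor_6.0, the build that the submitters' processing notes name. RefSeq's table held 5 such windows for Bdnf that do not overlap, 2 for Ntf3 and 1 for Sort1, and Bdnf transcripts from different starts are summed in the counts. Both strands were searched for the cAMP response element TGACGTCA, its core CGTCA, the GC box GGGCGG and the E-box CACGTG, where the core also lies within the full element. Capitals mark a match. The windows below are the Bdnf window with such a core (chr3:116637608-116637857, plus strand), the upstream Ntf3 window (chr4:160670624-160670873, minus strand) and the Sort1 window (chr2:198612245-198612494, plus strand), each read from 5′ to 3′ along its gene.
Bdnf: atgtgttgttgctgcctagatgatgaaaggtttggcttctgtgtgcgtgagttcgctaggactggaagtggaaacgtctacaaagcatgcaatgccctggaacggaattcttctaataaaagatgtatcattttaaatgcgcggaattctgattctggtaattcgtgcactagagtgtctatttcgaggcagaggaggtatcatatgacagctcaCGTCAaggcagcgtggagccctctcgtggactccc
Ntf3: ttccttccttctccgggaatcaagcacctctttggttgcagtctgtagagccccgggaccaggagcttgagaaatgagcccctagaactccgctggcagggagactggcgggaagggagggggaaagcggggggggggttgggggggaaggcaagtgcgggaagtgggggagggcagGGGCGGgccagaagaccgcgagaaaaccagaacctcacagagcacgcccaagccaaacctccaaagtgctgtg
Sort1: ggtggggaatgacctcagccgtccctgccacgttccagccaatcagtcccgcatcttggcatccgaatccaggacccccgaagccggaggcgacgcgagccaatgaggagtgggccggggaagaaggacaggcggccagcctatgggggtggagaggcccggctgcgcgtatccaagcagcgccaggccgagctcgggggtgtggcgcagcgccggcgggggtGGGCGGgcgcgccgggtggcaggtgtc

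The Bdnf window held 1 core, 30 bases before the start, and a core occurs in 18.2% of 33469 such windows in the table. A GC box stood 67 bases before the Ntf3 start and 21 bases before the Sort1 start, and 30.5% of all windows hold one. The second Ntf3 window also held 1 GC box, and 1 further Bdnf window held 2. Exact copies of the full element and of the E-box, present in 1.59% and 5.59% of all windows, were in none of the 8 windows searched. Forms of either that differ by a letter were not searched for. The Sort1 window was 71.6% G and C, the Ntf3 window 62.8% and the Bdnf window 46.8%. These matches are a description of the letters only.

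The second ligand, neurotrophin-3, was also higher in the female choline groups. Ntf3 (ENSRNOG00000019716) was at 11.6, 11.5, 10.9 and 10.96 CPM in female IS, at 13.0, 17.5, 13.5 and 12.4 in ISch, at 10.5, 10.04, 10.95 and 11.7 in FID and at 16.1, 14.9, 11.7 and 16.1 in FIDch. Both choline groups lay above the IS rats, and FIDch replicate 3 fell just within the range of the FID rats. Fitted log2 changes were 0.32 in ISch against IS (standard error 0.11, adjusted p = 0.171), 0.39 in FIDch against IS (standard error 0.11, adjusted p = 0.151) and 0.44 in FIDch against FID (standard error 0.11, adjusted p = 0.0728), all from edgeR's test. Each met the criterion, with all libraries and without any 1 of the 8, and none met the adjusted threshold with all libraries. Without FIDch replicate 3 the adjusted p was 0.0294 for FIDch against IS and 0.0206 for FIDch against FID. Across the 4 female diets, which were tested together in 1 model, Ntf3 had an adjusted p of 0.0363 and Bdnf one of 0.00189, and the adjusted p of Ntf3 stayed under 0.05 in 4 of 16 fits with a library removed.

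In males Ntf3 was at 10.9, 9.32, 9.37 and 9.25 CPM in IS, at 7.26, 9.73, 8.24 and 8.10 in ISch, at 9.10, 11.9, 9.52 and 10.2 in FID and at 9.07, 7.35, 9.82 and 10.1 in FIDch. The groups overlapped in all 5 comparisons. ISch differed from IS by a log2 fold change of -0.22 and FIDch from FID by -0.15 (both with a standard error of 0.13, adjusted p = 0.579 and 0.602).

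Sortilin separated the choline and other females. Sort1 (ENSRNOG00000031814) was at 1260.4, 1288, 1107 and 1276 CPM in female IS and at 1212, 1271, 1197 and 1244 in FID. It was at 1011, 990.1, 1059 and 1003 in ISch and at 1034, 1040.4, 1032 and 849.6 in FIDch. All 8 choline rats were below all 8 rats without choline, with a difference in means of -18.6%. Such a lack of overlap between 8 and 8 female rats was found for 1.36% of 13628 genes with a mean of at least 1 CPM. In males the choline and other rats overlapped for all 6 genes, where 0.393% of genes did not. Within a choline level, FID and IS did not differ beyond their spread (p = 0.97), nor did FIDch and ISch (p = 0.89, exact permutation tests).

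For Sort1 the fitted log2 change was -0.28 in ISch against IS (standard error 0.051, adjusted p = 0.0187), -0.32 in FIDch against FID (standard error 0.064, adjusted p = 0.0301) and -0.32 in FIDch against IS (standard error 0.073, adjusted p = 0.0904). Each met the criterion whichever of the 8 libraries was left out. Its adjusted p then stayed under 0.05 in 3 of 8 cases for ISch against IS and in 3 of 8 for FIDch against FID. Across the 4 female diets the adjusted p of Sort1 was 0.00351.

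In males Sort1 was at 837.9, 983.6, 959.1 and 953.2 CPM in IS, at 1157, 1119.7, 984.4 and 1009 in ISch, at 980.6, 922.2, 987.4 and 1017 in FID and at 914.8, 1161, 950.4 and 949.7 in FIDch. The ISch rats were all above the IS rats, by 14.4% in the mean. Its log2 fold change was 0.19 (standard error 0.067, unadjusted p = 0.0122, adjusted p = 0.384), just under the fold limit, and it passed the limit without IS replicate 2, IS replicate 3, IS replicate 4, ISch replicate 3 or ISch replicate 4, at 0.22, 0.21, 0.20, 0.23 and 0.22. The 3 male libraries whose names in the labels end in A, ISch replicates 1 and 2 and FIDch replicate 2, were the 3 highest for Sort1, at 1119.7 to 1161 CPM against 837.9 to 1017 in the other 13. They were chosen after seeing the data and include the highest ISch values, so that leaving them out had to lower the difference. With ISch replicates 3 and 4 remaining, the log2 fold change of ISch against IS was 0.09 (adjusted p = 0.903 in edgeR). As with all libraries, no gene of the 6 met the criterion in any male comparison. The part of the difference in names in these values was not tested.

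**Figure D2:**
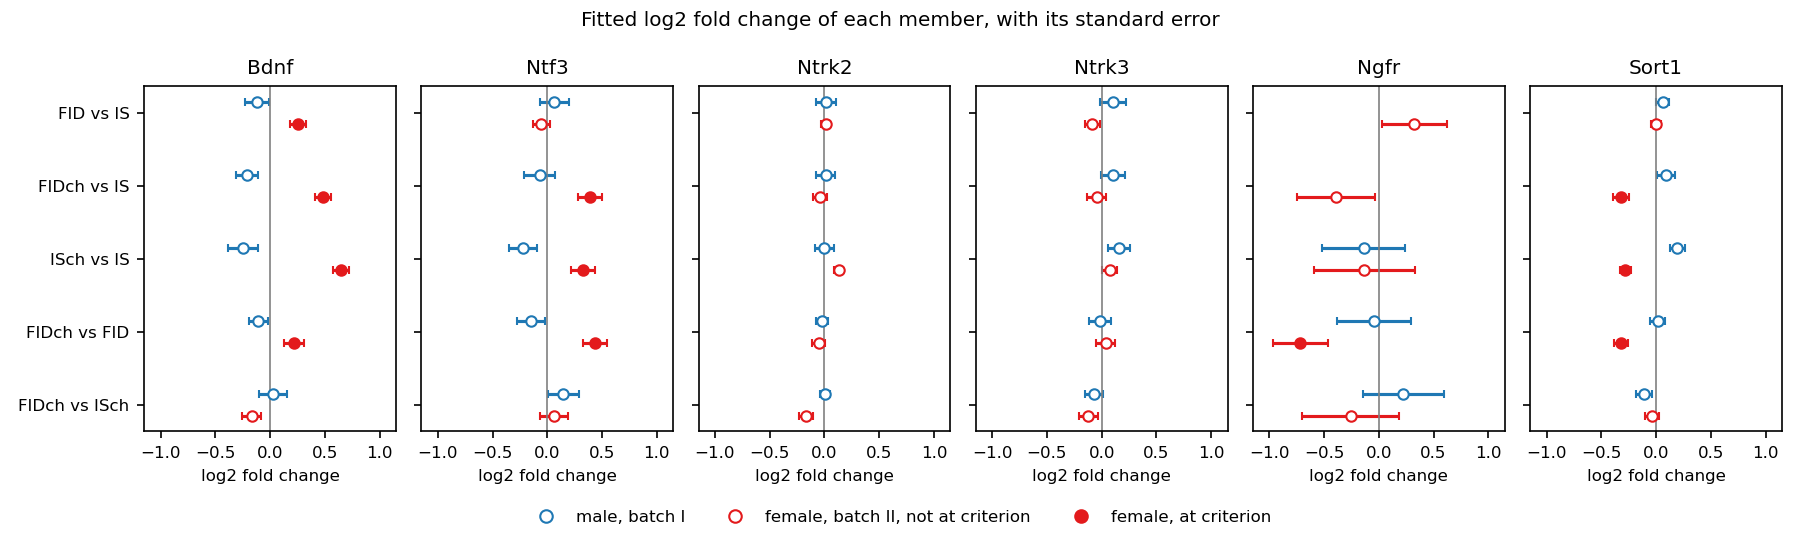
Fitted log2 fold change of each gene on the horizontal axis with its standard error, for 5 diet comparisons on the vertical axis, in males (blue) and females (red); filled points met the criterion. Filled points occur only in females, for Bdnf and Ntf3 above 0 and for Sort1 and Ngfr below 0, and Ngfr in males has no point in FID vs IS and FIDch vs IS, where it was not tested.

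The Trk receptors had smaller fold changes than the ligands in the female choline groups against IS. Ntrk2 (ENSRNOG00000018839) was at 801.5, 850.2, 770.0 and 841.1 CPM in female IS, at 884.9, 877.8, 927.9 and 883.2 in ISch, at 793.1, 822.4, 808.8 and 861.7 in FID and at 838.0, 845.1, 798.8 and 691.1 in FIDch. The ISch rats were above all other female rats. For ISch against IS the log2 fold change was 0.13 (standard error 0.042, unadjusted p = 0.0102, adjusted p = 0.152), under the fold limit, and that of FIDch against ISch was -0.17 (standard error 0.063, adjusted p = 0.58). Across the 4 female diets Ntrk2 had an unadjusted p of 0.0314 and an adjusted p of 0.175, and the unadjusted p was 0.0518, 0.104 and 0.0541 without ISch replicates 1, 3 and 4. In males Ntrk2 ranged from 621.6 to 865.2 CPM with absolute log2 fold changes of at most 0.02. Reads of full-length and truncated TrkB transcripts are summed in these counts, and 7 long noncoding genes overlap Ntrk2 in RefSeq, whose reads could be shared if the counting did not use strand.

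Ntrk3 (ENSRNOG00000018674) had no diet difference at the criterion in either sex. It ranged from 62.6 to 86.9 CPM in females and from 59.6 to 93.8 in males, and the groups overlapped in all 10 comparisons. In RefSeq 1 long noncoding gene overlaps Ntrk3, with the same limit on strand. Ngfr (ENSRNOG00000005392) was near the limit of detection, at 0.371 to 1.85 CPM in females and 0.519 to 1.79 in males. A count of 0 would allow up to 0.163 CPM in a female and 0.853 in a male library, and 3 to 17 reads per male and 7 to 42 per female rat were counted. It was at 1.34, 1.52, 1.26 and 1.25 CPM in female FID and at 0.510, 0.939, 0.798 and 1.02 in FIDch, with no overlap and a fitted log2 change of -0.72 (standard error 0.25, adjusted p = 0.163). With all 16 female libraries in 1 fit the value was -0.71 and did not meet the criterion (unadjusted p = 0.0871 in edgeR). Ngfr marks cholinergic neurons of the basal forebrain, whose other 6 markers summed to at most 19.4 CPM in any library, and in males Lhx8 had no read.

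Counted by comparison, 3 of the 6 genes met the criterion in female ISch against IS, where 10.3% of all 14466 genes tested did, and 3 of 6 in FIDch against IS, where 8.98% did. The number was 4 of 6 in FIDch against FID (12.7% of all genes), 1 of 6 in FID against IS (6.47%) and 0 of 6 in FIDch against ISch (4.57%), where Ntrk2 alone had an unadjusted p under 0.05. With an adjusted p under 0.05 the numbers were 2 (2.54% of all genes), 1 (0.907%), 1 (2.28%), 0 (0.191%) and 0 (0.00689%). Across the 4 female diets, with no fold limit, 4 of 6 met the criterion (22.5%), among them Ntrk2, and for 3 the adjusted p was under 0.05 (5.34%). In males 0 of 6 met the criterion in ISch against IS (8.06%), FIDch against FID (13.0%), FIDch against ISch (8.12%), across the 4 diets (14.3%) and for the interaction (14.4%), and 0 of 5 tested did in FID against IS (4.62%) and FIDch against IS (6.12%). Sort1 in ISch against IS was the 1 male value with an unadjusted p under 0.05. By overlap alone, the groups were apart for 4 of 6 genes in female ISch against IS (10.3% of all genes with a mean of at least 1 CPM), 3 in FIDch against IS (8.02%), 2 in FIDch against FID (12.3%), 1 in FID against IS (6.57%) and 1 in FIDch against ISch (5.28%). In males they were apart for 1 gene in ISch against IS (6.14%) and for 0 in FID against IS (3.58%), FIDch against IS (5.34%), FIDch against FID (10.6%) and FIDch against ISch (7.56%). These comparisons share groups, so their counts are not independent.

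The response to choline differed between the sexes at the criterion for 3 of the 6 genes. The difference between the log2 fold changes was taken as male minus female in 1 model of both sexes. For ISch against IS it was -0.89 for Bdnf (standard error 0.17, adjusted p = 0.0159), 0.48 for Sort1 (standard error 0.09, adjusted p = 0.0128) and -0.54 for Ntf3 (standard error 0.17, adjusted p = 0.121), all from edgeR's test, where 14.2% of all genes were at the criterion. For Bdnf and Sort1 the adjusted p stayed under 0.05 whichever of the 16 libraries was left out. Under the other settings tried, each with its own test, it reached 0.116 for each gene. Across those settings Bdnf came as near to 0 as -0.68 and Sort1 as 0.38, still at the criterion. For FIDch against IS it was -0.70 for Bdnf (adjusted p = 0.0186), -0.46 for Ntf3 (adjusted p = 0.229) and 0.40 for Sort1 (adjusted p = 0.12), against 12.9% of all genes. The adjusted p of Bdnf there stayed under 0.05 in 14 of 16 fits with a library removed. For FIDch against FID the same 3 genes were at the criterion (17.7% of all genes). Bdnf, at -0.31 there, lost it without male FID replicate 2, male FIDch replicate 4, female FID replicate 1 or female FIDch replicate 2 (-0.25, -0.27, -0.28 and -0.27). For FID against IS Bdnf was at the criterion, at -0.36 (adjusted p = 0.525, 7.64% of all genes). In FIDch against ISch none was, where 9.89% of all genes were. Since sex is also the sequencing batch, and female libraries held 18439999 to 26616318 counts against 3515806 to 9517503 in males, a difference of sex and one of batch cannot be told apart.

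Markers of the dentate gyrus were higher in the female choline groups, as the ligands were. The summed level of its 8 markers was 296.4 to 341.7 CPM in female IS, 318 to 346.3 in FID, 417.5 to 456.7 in ISch and 381.3 to 463.6 in FIDch, so that the choline and other rats did not overlap. Of 6 markers tested, 5 were higher at the criterion in ISch against IS and in FIDch against IS (Prox1, Dsp, C1ql2, Calb1 and Trpc6) and 2 in FIDch against FID (Prox1 and Dsp), and the other 2 of the 8, Tdo2 and Lct, were at or near 0. Prox1, the transcription factor that marks granule cells, was at 0.39 on the log2 scale in ISch against IS (standard error 0.074, adjusted p = 0.0227). Dsp changed most there, at 2.87, where C1ql2 was at 0.51, Trpc6 at 0.36 and Calb1 at 0.34. In female FID against IS the dentate gyrus markers tested had values from -0.14 (Dsp) to 0.18 (C1ql2, unadjusted p = 0.0568 in edgeR). None of them was at the criterion there. In males the sum was 313.5 to 386.2 CPM over all diets and 0 of 6 markers were higher at the criterion in any of the 5 comparisons. Lower at the criterion were C1ql2 (-0.23) and Calb1 (-0.22) in male ISch against IS, and Calb1 in FIDch against IS (-0.22) and against FID (-0.23). The part of the dentate gyrus share of the tissue in the levels of Bdnf, Ntf3 and Sort1 was not tested. CA1 markers summed to 608.3 to 1421 CPM in female FIDch and to 957.2 to 1385 in the other females, the lowest in FIDch replicate 3 and the highest in FIDch replicate 4. Choroid plexus markers reached 424.7 CPM in 1 male FID library and at most 19.6 in any other.

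**Figure D3:**
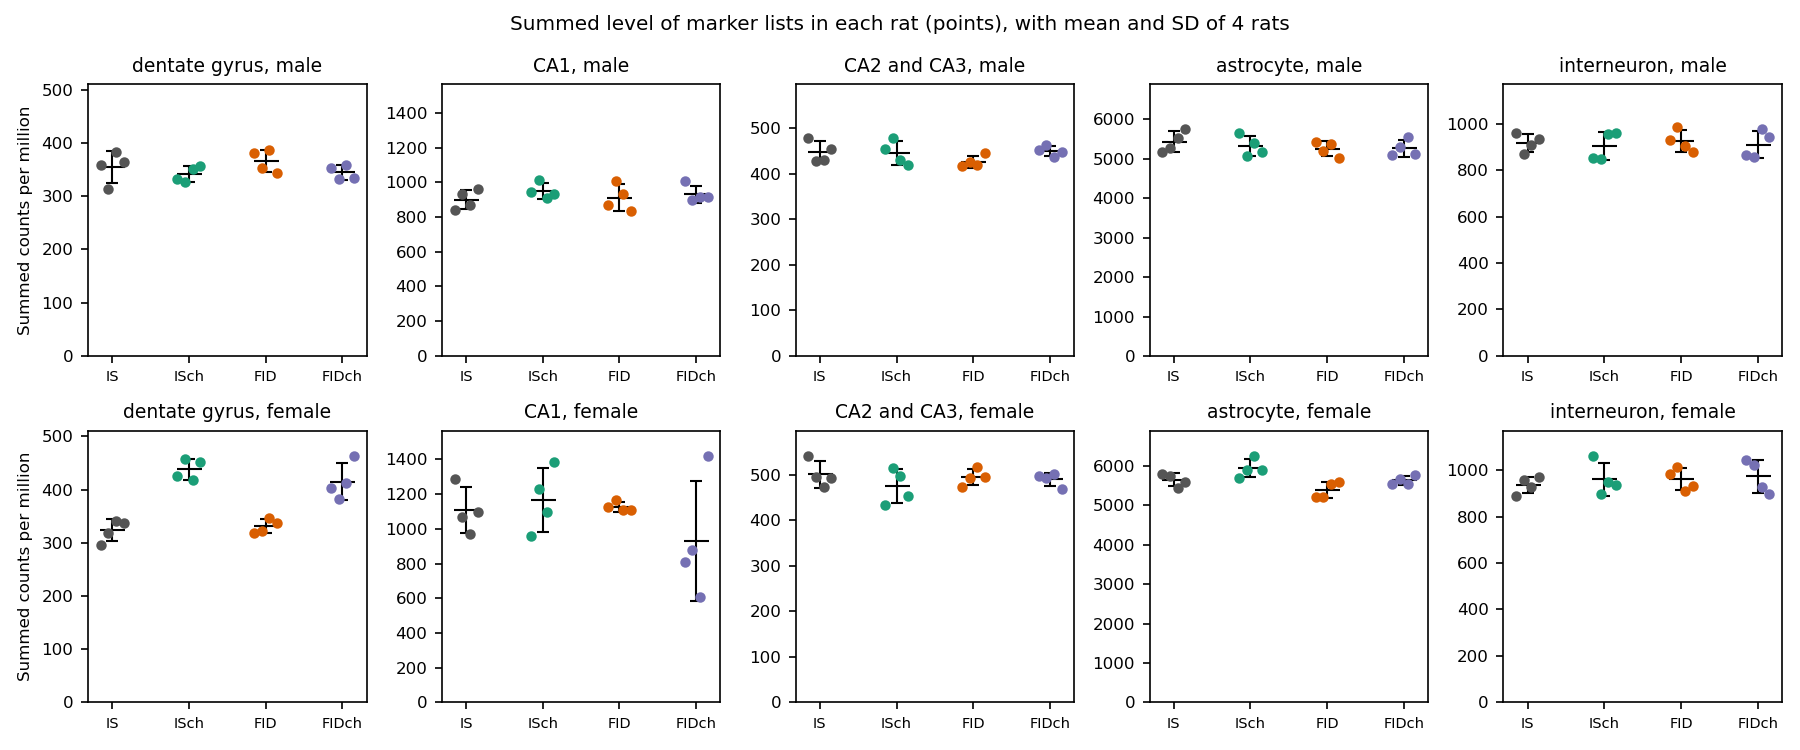
Summed normalized CPM of marker lists (vertical axis) in each rat by diet group and sex, with mean and SD of 4 rats. In females the dentate gyrus markers of the ISch and FIDch rats lie at 381.3 to 463.6 CPM, above the 296.4 to 346.3 of the IS and FID rats, and the CA1 markers spread most in FIDch.

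Some pairs of the 6 genes were correlated between rats. Correlations were computed for 30 pairs, 15 per sex, on log2 (CPM + 0.5), and after centring on each diet's mean, with permutation p-values from 100000 resamples within diets, 2 pairs had an adjusted p under 0.05. In females, Ntrk2 and Sort1 varied together within diets, with r = 0.906 (p = 0.00117, adjusted p = 0.0232, permutation) and rho = 0.876 (p = 0.0003, adjusted p = 0.009, permutation) over 16 libraries. Without the 2 libraries farthest from the median of Ntrk2, r was 0.802. In males, Ntf3 and Ntrk2 ran in opposite directions, with r = -0.625 (p = 0.00155, adjusted p = 0.0232, permutation) and rho = -0.70 (p = 0.00469, adjusted p = 0.0703, permutation). Without the 2 libraries farthest in Ntf3, r was -0.621. Without centring r was -0.474 (adjusted p = 0.223, permutation), and -0.497 with the 3 libraries named with A also left out (adjusted p = 0.257, permutation).

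Because the female Sort1 values fall into separate sets by choline, no correlation over all 16 females is given for it. Within diets, r with Sort1 was -0.21 for Bdnf (p = 0.487, permutation) and -0.239 for Ntf3 (p = 0.504, permutation), and between Bdnf and Ntf3 it was 0.275 (p = 0.414, permutation). In females the opposite directions of ligands and Sort1 were thus seen between diets and were not detectable among rats of 1 diet. In males Ntf3 and Sort1 had r = -0.692 (p = 0.00309, adjusted p = 0.0232, permutation) and rho = -0.521 (p = 0.0412, adjusted p = 0.137, permutation) over 16 libraries. Here r was -0.588 without the 2 farthest, -0.543 without the 3 named with A (adjusted p = 0.18, permutation) and -0.622 within diets (adjusted p = 0.13, permutation). Ntrk3 and Sort1 in males had r = 0.691 (p = 0.00393, adjusted p = 0.0236, permutation) and rho = 0.612 (p = 0.0135, adjusted p = 0.0809, permutation). That r was 0.489 without the 2 farthest, 0.759 without the 3 named with A (adjusted p = 0.0205, permutation) and 0.652 within diets (adjusted p = 0.0853, permutation).

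**Figure D4:**
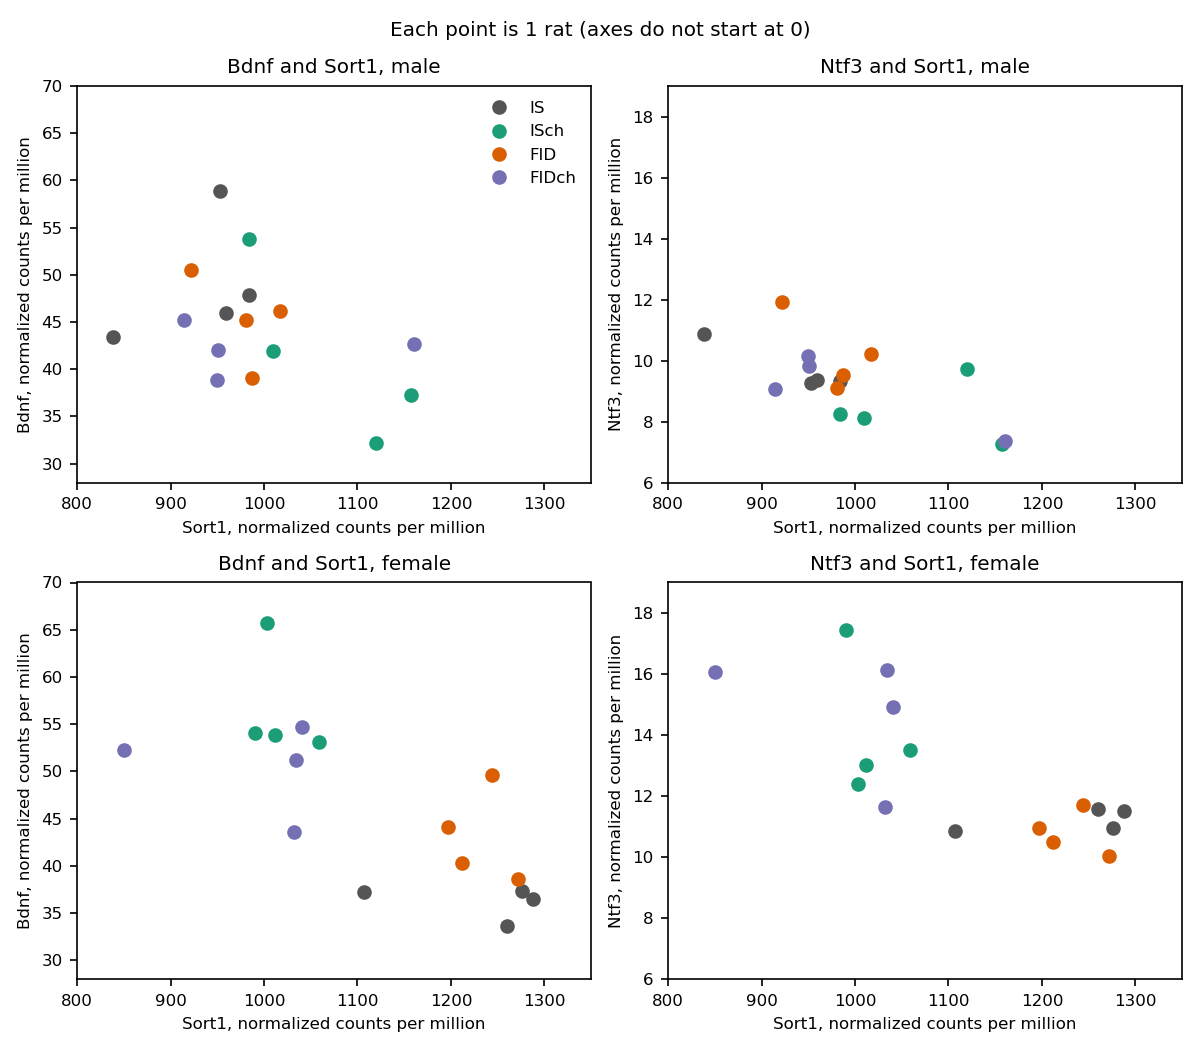
Bdnf (left) and Ntf3 (right) against Sort1 in each rat, in normalized CPM on both axes, which do not start at 0, for males (top) and females (bottom), coloured by diet. In females the ISch and FIDch rats lie at Sort1 levels of 850 to 1059 with the higher ligand levels, and the IS and FID rats at 1107 to 1288, whereas the male diets overlap.

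Genes whose levels ran most like each of the 6 were found over 32 libraries, with log2 values centred within batch, among 13860 genes. For Bdnf they were Prickle1, Filip1 and F3 (r = 0.799, 0.777 and 0.741), and for Ntf3 Btg3, Schip1 and Czib (r = 0.80, 0.794 and 0.782). For Sort1 they were Rims1, Adam23 and Atp2a2 (r = 0.923, 0.898 and 0.893), for Ntrk2 Adcy1, Slc1a2 and Dpp8 (r = 0.869, 0.862 and 0.857) and for Ntrk3 Ino80d, Nsd1 and Plxna2 (r = 0.873, 0.863 and 0.861). For Ngfr, with its few reads, they were Efnb2, Hdac11 and Zcchc18 (r = 0.721, 0.719 and 0.709). These values are the highest of many and describe these libraries only, which share dissection and depth. They were not centred on diet means, so that differences between diets, such as that of Sort1 in females, enter them.

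Of the other genes of neurotrophin signalling, 120 were tested in females, from lists of ligands, processing enzymes, receptor partners, kinase cascades, factors that regulate Bdnf transcription and genes induced by BDNF. In female ISch against IS, 12 of these were higher and 3 lower at the criterion, 12.5% in all beside 10.3% of all genes. Of 17 BDNF response genes tested, 6 were higher and 0 lower, with a median log2 fold change of 0.18 where the median of all genes was 0. They included Egr2, an immediate early transcription factor, at a log2 fold change of 1.33 (standard error 0.12) with an adjusted p of 0.000324, the related Egr1 at 0.46 (adjusted p = 0.0114) and the MAP kinase phosphatase Dusp4 at 0.40 (adjusted p = 0.0115). Among 19 factors that regulate Bdnf transcription, 3 were higher and 1 lower. The cAMP-responsive factor Crem was at 0.44 (adjusted p = 0.0323), Mef2d at 0.22 (adjusted p = 0.0375) and the coactivator Crebbp at -0.30 (adjusted p = 0.0275), in edgeR's test.

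In female FID against IS, 4 of 17 response genes were higher and 0 lower, with a median log2 fold change of 0.08, where 6.47% of all genes were at the criterion in either direction. In FIDch against IS 1 was higher and 1 lower (8.98% of all genes), with a median of -0.05. Against FID 1 was higher and 3 lower (12.7% of all genes), with a median of -0.14. Against ISch 0 were higher and 6 lower (4.57% of all genes), with Egr2 at -1.02 (standard error 0.21, adjusted p = 0.44) and Egr3 at -0.27 (adjusted p = 0.44). Lingo1, a partner of the p75 receptor, was at 0.25 in female FID against IS (adjusted p = 0.0752) and at -0.41 in FIDch against FID (standard error 0.063, adjusted p = 0.0108). Cadps2, which acts in the release of BDNF-containing vesicles, was at -0.50 in FIDch against FID (standard error 0.084, adjusted p = 0.0145). Crebbp was at -0.25 in FID against IS (adjusted p = 0.074) and at -0.38 in FIDch against IS (adjusted p = 0.129), and Crem at 0.40 in FIDch against IS (adjusted p = 0.084). In males 119 of the other genes were tested, and 2.52% of them met the criterion in FID against IS (4.62% of all genes) and in FIDch against IS (6.12%). The share was 6.72% in ISch against IS (8.06% of all genes), 8.4% in FIDch against FID (13.0%) and 10.1% in FIDch against ISch (8.12%). In ISch against IS, Nptx2 was at -0.41 (adjusted p = 0.156) and Usf2 at -0.24 (adjusted p = 0.334).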

How the data were processed

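The authors trimmed reads with Trimmomatic and aligned them with HISAT2. They deposited raw featureCounts counts per gene without normalization, on Rnor_6.0 per the submitters' processing notes. Strand use, multi-mapping reads and the annotation version are not given in the sources used here. Counts were fitted with edgeR 4.0.16 in R 4.3.3 (TMM, filterByExpr, glmQLFit and glmQLFTest), each pair of groups apart as in the study, with Benjamini-Hochberg adjustment over all genes tested. The interaction and the 4 diets were fitted over 16 libraries of a sex. The diet-by-sex tests used the 16 libraries concerned. Standard errors are the absolute log2 fold change over the root of F. Single genes were compared by exact permutation of CPM in 60 tests, of which 12 had an unadjusted p under 0.05. Their smallest Benjamini-Hochberg adjusted p was 0.143, and the permutation p-values for CPM given in the text are otherwise unadjusted. The median total was 8007907 counts in males and 21747536.5 in females, and intervals for a count of 0 cover counting error at 95%. Over 48 replicate pairs, counts differed by 2.02 to 25.2 times counting noise (chi-square per gene), so no library duplicated another of its group. Libraries of different groups were not compared in this way.

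On simulated female ISch and IS counts of 14363 genes, 84.6% of 65 genes with a log2 fold change of 0.5 and 2.89% of unchanged genes met the criterion. An adjusted p under 0.05 was reached by 55.4% of those 65 genes. Changes smaller than 0.5, as most of those given here are, were not simulated. Named genes are the 6 members, the 2 other pathway genes with the smallest p at the criterion per comparison and any with an adjusted p under 0.05, and the 3 genes most like each member. Some results the rule names in males are not reported here. The members, gene lists and tests were chosen with earlier results of these data known. Alternatives were other tests (likelihood ratio, DESeq2 1.42.0), scalings, filters, thresholds, a replicate block and each library left out.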

Additional observations from a re-analysis of the deposited data

Results flagged for a closer look

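A library that stood apart from the other 3 of its group was found in 6 of 48 groups, where chance alone gives about 1 in 20. In females these were Bdnf in ISch replicate 4 (65.7 CPM), Ntrk2 in ISch replicate 3 (927.9 CPM), Sort1 in IS replicate 3 (1107 CPM) and Sort1 in FIDch replicate 4 (849.6 CPM). In males they were Ntf3 in IS replicate 1 (10.9 CPM) and Sort1 in FIDch replicate 2 (1161 CPM), the smallest library and one of the 3 named with A. Without male FIDch replicate 2, Sort1 met the criterion for the iron-by-choline interaction in males (log2 difference -0.25, adjusted p = 0.172 in edgeR) and across the 4 male diets (unadjusted p = 0.0155).

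The diet response differed between male (batch I) and female (batch II) libraries for 10 values, given as male minus female on the log2 scale. For ISch against IS they were -0.89 for Bdnf, -0.54 for Ntf3 and 0.48 for Sort1. For FIDch against IS they were -0.70 for Bdnf, -0.46 for Ntf3 and 0.40 for Sort1, and for FIDch against FID -0.31 for Bdnf (adjusted p = 0.205), -0.57 for Ntf3 (adjusted p = 0.0836) and 0.35 for Sort1 (adjusted p = 0.0597). For FID against IS the value was -0.36 for Bdnf (adjusted p = 0.525 in edgeR). Adjusted over all genes, p in edgeR was under 0.05 only for Bdnf and Sort1 in ISch against IS and Bdnf in FIDch against IS. Sex and batch cannot be told apart. The choline response of Bdnf differed at the criterion between formerly iron-deficient and iron-sufficient females, by -0.42 (adjusted p = 0.346 in edgeR). Of all genes 7.33% were at the criterion for this interaction.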

How the results depend on the processing

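Of 2438 values of single genes under other settings, 2375 kept their side of the criterion, 30 fell short of it and 33 newly met it. The 26 values at the criterion kept their sign under every setting tried, while 36 of the 86 others changed sign under at least 1. With the adjusted p in place of the criterion, the number of genes was 0 in female FID against IS, 1 in FIDch against IS, 1 in FIDch against FID and 0 for the interaction, and 0, 1 and 0 for the sex difference in FID against IS, FIDch against IS and FIDch against FID. With no fold limit it was 1 in male ISch against IS, 1 in female FIDch against ISch, 2 for the female interaction and 1 for the sex difference in FIDch against ISch. All genes with at least 1 count gave 1 in male FIDch against IS and 1 across the male diets, and library size alone gave 1 in male ISch against IS. Not centred on diet means, 6 correlated pairs had an adjusted p under 0.05, among them female Sort1 with each ligand, whose values fall into separate sets, and 7 did without the 3 male libraries named with A, chosen after seeing the data. Centred on diet means, 2 did.

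Leaving out 1 library gave 0 to 1 genes in male FIDch against IS, 0 to 2 in male ISch against IS, 0 to 1 across the male diets and 0 to 1 for the male interaction. In females it gave 0 to 2 in FID against IS, 0 to 1 in FIDch against ISch and 1 to 2 for the interaction, and for the sex difference 1 to 2 in FID against IS 0 to 2 in FIDch against ISch and 2 to 3 in FIDch against FID. The replicate numbers did not pair the samples (4 of 24 male and 1 of 24 female pairs correlated over 0.1). With the replicate block, 3 in place of 4 genes met the criterion across the female diets, 3 did in female ISch against IS, 3 in FIDch against IS, 4 in FIDch against FID, 1 in FID against IS and 0 in each male comparison. Best with its own number correlated 7 of 16 male and 3 of 16 female libraries. Ngfr rests on 3 to 42 reads per library. The cause of these changes was not tested.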
